A study of Mus musculus with 18 samples.

Results

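The genes described here are the neighbours of Casp6 on chromosome 3 of the mouse. They were chosen by position, as every gene of the count tables that overlapped chr3:119901415-139914112 of mm10, which is Casp6 with 10 Mb added on each side. The choice was made with earlier results of these data known. Casp6 itself and 4 further genes (Elovl6, Nfkb1, Cyp2u1 and Col25a1) were left out by the rule, so that 134 of the 25124 genes in the tables were members. Of these, 67 lay before Casp6 and 67 after it, and 101 were listed as protein-coding.

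RNA was measured in 3 fat depots of WT and C6KO mice, the white fat of the groin (inguinal, iWAT), the white fat beside the testis (epididymal, eWAT) and brown fat (BAT), with 3 libraries for each genotype and depot and 18 in all. C6KO mice carry a global knockout of Casp6, the gene of an effector caspase, on the C57BL/6J background, and came from a stock of The Jackson Laboratory. WT and C6KO mice were both male offspring of heterozygous crosses, were put on an HFD with 60% of calories from fat at 10 to 14 weeks of age, and were fed it for 12 weeks. The libraries are described in the sample notes as biological replicates, and it is not stated whether tissue of several mice was pooled.

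A gene-targeted mouse is usually made in embryonic stem cells of one strain and bred onto another. Selection for the targeted allele then also keeps a stretch of donor chromosome on both sides of it, and sequence differences within that stretch can change the level of nearby transcripts or the alignment of their reads. Homozygous mutant and wild-type littermates of a heterozygous cross can therefore differ in these neighbours as well as in the targeted gene. The strain of the stem cells is not given in the sources used here, strain variants were not analysed here, and loss of caspase-6 and linked DNA cannot be told apart in this design.

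Casp6 was lower in all 9 C6KO libraries than in the WT libraries of the same depot. Its level was 16.1 to 20.1 CPM (counts scaled to the TMM-normalised library size) in WT iWAT and 5.55 to 7.98 in C6KO, 19 to 23.1 against 4.29 to 6.65 in eWAT, and 11.2 to 18.7 against 3.07 to 6.91 in BAT. Its log2 fold change, C6KO minus WT, was -1.51 for iWAT (standard error 0.198, adjusted p = 0.0751), -1.85 for eWAT (0.195, with an adjusted p = 0.0132) and -1.50 for BAT (0.326, with an adjusted p = 0.0671), all by the quasi-likelihood test of edgeR. Casp6 reads remained in every C6KO library.

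Total counts were between 16506034 and 19139694 in the white depots and between 7803108 and 12428683 in BAT, and sampling error was therefore larger for low genes of BAT. The brown adipocyte marker Ucp1 was between 4058.1 and 9763.5 CPM in BAT and at most 6.13 CPM in iWAT and eWAT, as the tissue labels say. The summed CPM of 10 macrophage markers was lower in C6KO than in WT in every depot, at 1727.3 to 2086.4 against 440.9 to 1253.5 in iWAT, 6751.9 to 8612.2 against 4558.8 to 5376.2 in eWAT and 589.5 to 790.8 against 221.0 to 347.0 in BAT. The sum of 5 adipocyte markers was higher in C6KO in iWAT, at 28436.8 to 29746.5 against 20429.9 to 23260.9, and in eWAT, at 12175.4 to 15425.0 against 8724.9 to 10316.5, and overlapped in BAT. That of 5 endothelial markers was higher in eWAT, at 746.9 to 903.9 against 537.2 to 608.0, and in BAT, at 1089.8 to 1120.2 against 788.0 to 991.7, and overlapped in iWAT. One BAT library, WT replicate 2, had 28031.9 CPM over 5 skeletal muscle markers, where the other 5 BAT libraries had 33.5 to 5470.9. The calls in BAT, and some single values there, are therefore also given without it.

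A call needed a p below 0.05 after Benjamini-Hochberg adjustment over all genes tested in the depot, together with a fold change of at least 1.5. Fold changes were taken from the TMM-scaled counts. The p-values set the difference between genotypes against the spread between these libraries, which was estimated with information shared over genes. Of the 134 members, 86 had enough reads to be tested in at least 1 depot, 72 in all 3, and 18 had no read in any library. The untested members were mostly non-coding: 5 of the 33 that are not protein-coding were tested. Poly(A) selection leaves most microRNAs out, and this set holds 11 microRNAs and other small RNAs.

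In iWAT, 3 of the 80 members tested were called lower in C6KO, or 3.75%, against 0.0206% of all genes tested. These were Rpl34, Rpl34-ps1 and Adh6b, and they were the whole of the 3 genes called lower in that depot. In eWAT, 6 of 82 were called lower, against 0.208% of all genes, and they were Rpl34, Rpl34-ps1, Mcub, Fnbp1l, Cenpe and Dapp1. In BAT, 4 of 76 were called lower, against 1.07% of all genes, and they were Rpl34, Rpl34-ps1, Adh1 and Adh6b. Rpl34 and Rpl34-ps1 share 1 locus, as described below, so the calls fell on 2 loci in iWAT, 5 in eWAT and 3 in BAT.

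Calls of higher expression were rarer. Alpk1 in eWAT was the 1 member called higher, against 0.537% of all genes tested there. In iWAT edgeR called 0 members higher (background 0.00688%), with 6 at an unadjusted p below 0.05 and 1 called by DESeq2. In BAT it also called 0 (background 0.169%), with 3 at an unadjusted p below 0.05 and 0 called by DESeq2. DESeq2 called 9 members lower for iWAT (3.53% of all genes), 8 for eWAT (1.22%) and 7 for BAT (2.62%).

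Without any 1 of 5 eWAT libraries (WT replicates 1, 2 and 3, C6KO replicates 1 and 3), only the 2 entries at the Rpl34 locus were still called lower there and Alpk1 was no longer called. Without C6KO replicate 2, edgeR called 7 lower and 2 higher. In BAT the same 2 entries alone were called without WT replicate 1 or 3 or C6KO replicate 1 or 3, and Rpl34 alone without C6KO replicate 2. In iWAT, Rpl34, Rpl34-ps1 and Adh6b were called without any 1 library.

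At an unadjusted p below 0.05, 17 (iWAT), 15 (eWAT) and 17 (BAT) members were lower, against 9.29%, 7.82% and 8.64% of all genes. For higher these numbers were 6, 15 and 3, against 7.25%, 9.81% and 4.56%. DESeq2 called 1, 4 and 0 higher, against 1.18%, 2.77% and 1.05%. Called lower in all 3 depots were 2 of 72 members, the Rpl34 entries at 1 locus, against 0.0152% of all genes, which is those 2 alone. Estimates were lower in all 3 depots for 26 of 72 members, or 36.1%, against 20.8% of all genes, and higher for 11, or 15.3%, against 21.2%.

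On the rest of chromosome 3 a smaller share of the tested genes was called lower. It was 0 of 612 in iWAT by edgeR (40 at an unadjusted p below 0.05, and 12 of 609 by DESeq2, or 1.97% against 11.4% of the members), 1 of 625 in eWAT (0.16% against 7.32%) and 7 of 566 in BAT (1.24% against 5.26%). The members had a median log2 fold change of -0.12 (iWAT), -0.029 (eWAT) and -0.235 (BAT), beside 0.027, -0.006 and -0.032 over all genes. The median size of change, taken without its sign, was 0.352, 0.281 and 0.357 for the members and 0.214, 0.182 and 0.228 for all genes.

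**Figure D1:**
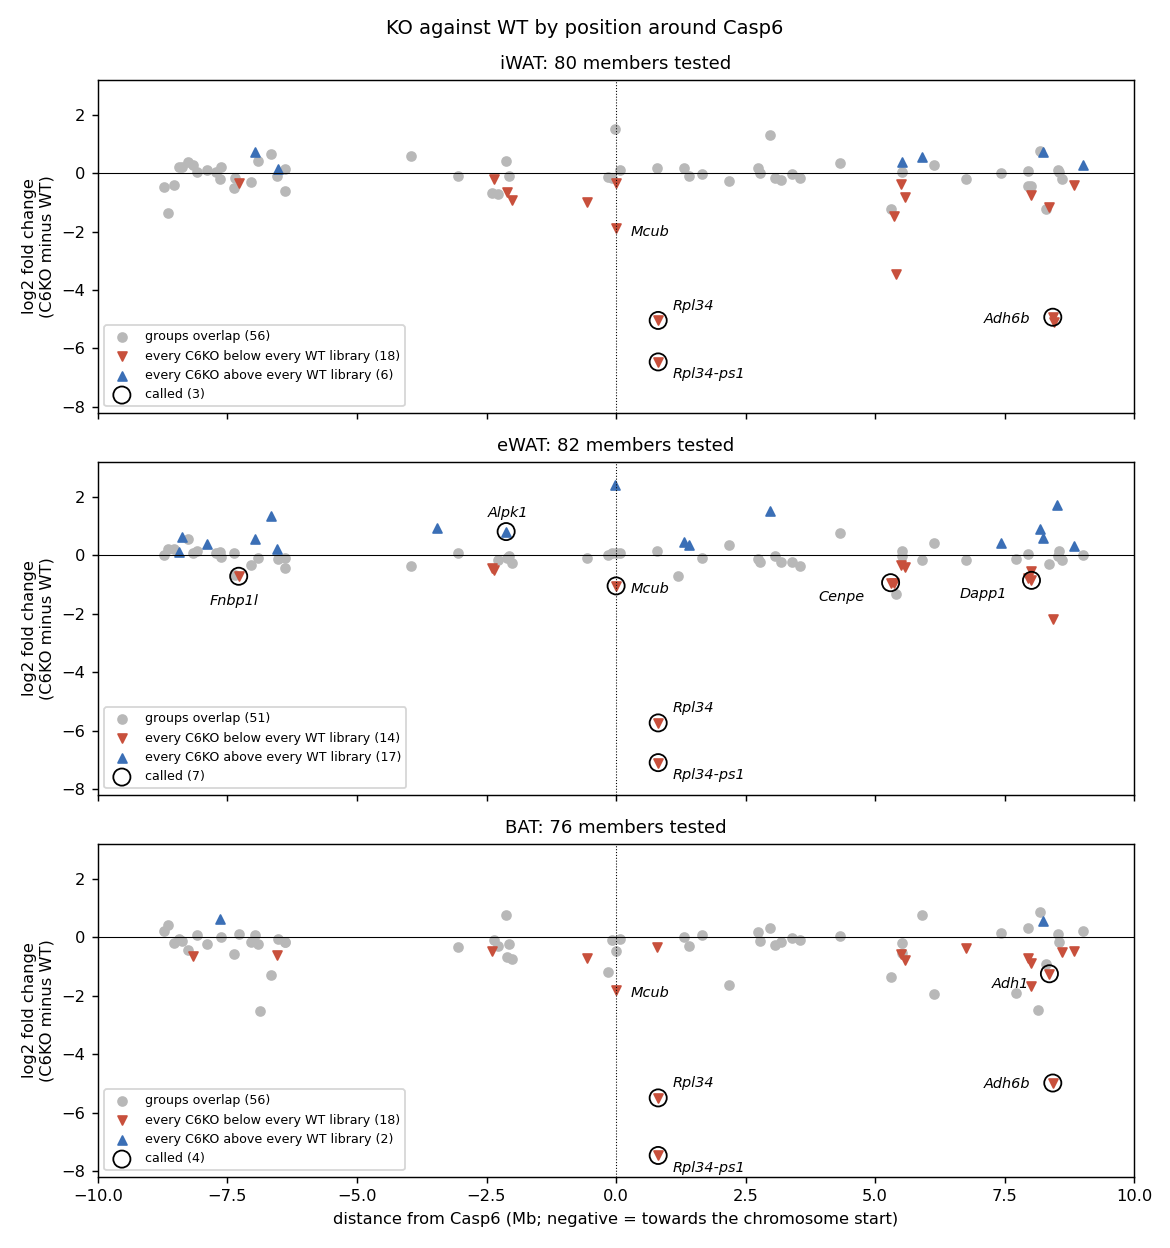
KO against WT by position. Each point is a tested member, the x axis is its distance from Casp6 in Mb and the y axis its log2 fold change, C6KO minus WT, in 1 panel for each depot. Triangles mark members whose 3 C6KO libraries lay all below or all above the 3 WT libraries. Filled grey circles mark members whose groups overlapped, and larger open black rings mark called genes. Rpl34-ps1 at 0.813 Mb was the lowest point in each panel, Rpl34 at the same place was at -5.04, -5.74 and -5.50, and in iWAT Adh6-ps1 was at -5.08. Adh6b at 8.43 Mb was near -5 in iWAT and BAT and at -2.19 in eWAT.

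Rpl34 encodes a protein of the large ribosomal subunit, which every cell needs to make protein. Its gene lies 0.813 Mb after Casp6, at chr3:130726827-130730337 on the minus strand, and was counted on transcript NM_026724. Rpl34 counts were 637, 639 and 582 for WT iWAT against 10, 25 and 23 for C6KO. In eWAT they were 1181, 1463 and 1059 against 16, 29 and 24, and in BAT 462, 392 and 361 against 9, 11 and 9. The groups were far apart in every depot.

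Reads assigned to Rpl34 in C6KO stood at 3.03% of the WT level in iWAT, 1.87% in eWAT and 2.21% in BAT. These are assigned reads only, and whether reads of Rpl34 went to a near-identical copy was not tested, as given below. The iWAT values were 35.8 ± 2.97 CPM in WT and 1.08 ± 0.448 in C6KO (SD, n = 3). They were 70.5 ± 9.11 and 1.30 ± 0.308 in eWAT, and 43.4 ± 14.1 and 0.951 ± 0.100 in BAT. The log2 fold changes were -5.04 (standard error 0.278, adjusted p = 0.000181), -5.74 (0.193, adjusted p = 1.47e-06) and -5.50 (0.300, adjusted p = 0.000102) by the same test. Other genes of the ribosome were far from these values. Over 73 other ribosomal protein genes tested in iWAT the log2 fold change had a median of 0.05 and ran from -1.24 (Rps13) to 0.47 (Rps27). In eWAT the median of 73 such genes was -0.18, with a lowest value of -0.91 (Rps16), and in BAT the median of 72 was -0.10, with a lowest value of -1.79 (Rpl3l). The BAT values of these genes include the WT library with muscle markers and are not given without it.

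The second entry, Rpl34-ps1, is named for a copy of Rpl34 that RefSeq places on chromosome 6 (transcript NM_001199350, a gene of 413 bases at 71124589 to 71125001 of GRCm38.p6). The deposited tables instead place that transcript at chr3:130726837-130730329, inside Rpl34 and on its strand, so both entries counted reads of 1 locus. Its counts were 621, 621 and 569 for WT iWAT against 3, 10 and 8 for C6KO, 1156, 1436 and 1032 against 5, 7 and 14 in eWAT, and 450, 383 and 352 against 0, 1 and 6 in BAT. Its log2 fold changes of -6.46, -7.10 and -7.47 are not independent of those of Rpl34.

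The copy on chromosome 6 is shown beside Rpl34 because the 2 differ at few bases. Over the 354 bases of the Rpl34 coding sequence in GENCODE vM21, the annotated copy differed at 2 positions, T132C and C318G, counted from the A of the start codon with the base of Rpl34 first, which is 99.4% identity. The 60 bases around each are given here with the differing base in capitals.
Rpl34, bases 102 to 161: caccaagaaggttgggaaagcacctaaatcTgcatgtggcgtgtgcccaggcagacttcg
Rpl34-ps1, bases 102 to 161: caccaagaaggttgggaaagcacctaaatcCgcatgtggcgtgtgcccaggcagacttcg
Rpl34, bases 288 to 347: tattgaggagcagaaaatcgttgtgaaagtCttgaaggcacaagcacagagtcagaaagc
Rpl34-ps1, bases 288 to 347: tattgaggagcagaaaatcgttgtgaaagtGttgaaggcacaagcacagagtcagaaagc
Of all 50-base stretches in the Rpl34 transcript, 37.9% also occurred in transcripts of 9 other annotated genes. These 9 were all processed pseudogenes, and 0 of them lay on chromosome 3 or had an entry at their own place in the count tables. Reads aligned to them were not analysed here, and whether reads of Rpl34 were assigned to a copy in C6KO mice was not tested.

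The 2 entries at the Rpl34 locus did not fall in the same proportion. The transcript counted as Rpl34 is 215 bases longer, 621 against 406, and GENCODE gives Rpl34 a first exon of 217 bases. The counts of Rpl34 beyond those of Rpl34-ps1 were 16, 18 and 13 in WT iWAT and 7, 15 and 15 in C6KO, with overlapping groups. In BAT they were 12, 9 and 9 against 9, 10 and 3, again with overlap, and in eWAT 25, 27 and 27 against 11, 22 and 10, with every C6KO library below. Reads on the shorter entry made up 97.5% of those on Rpl34 in WT iWAT and 36.2% in C6KO, 97.9% and 37.7% in eWAT, and 97.5% and 24.1% in BAT. The large loss of counts was on the part of the locus that both entries share. This reading takes the reads of the shorter entry to be among those of the longer one, which the tables do not show read by read.

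**Figure D2:**
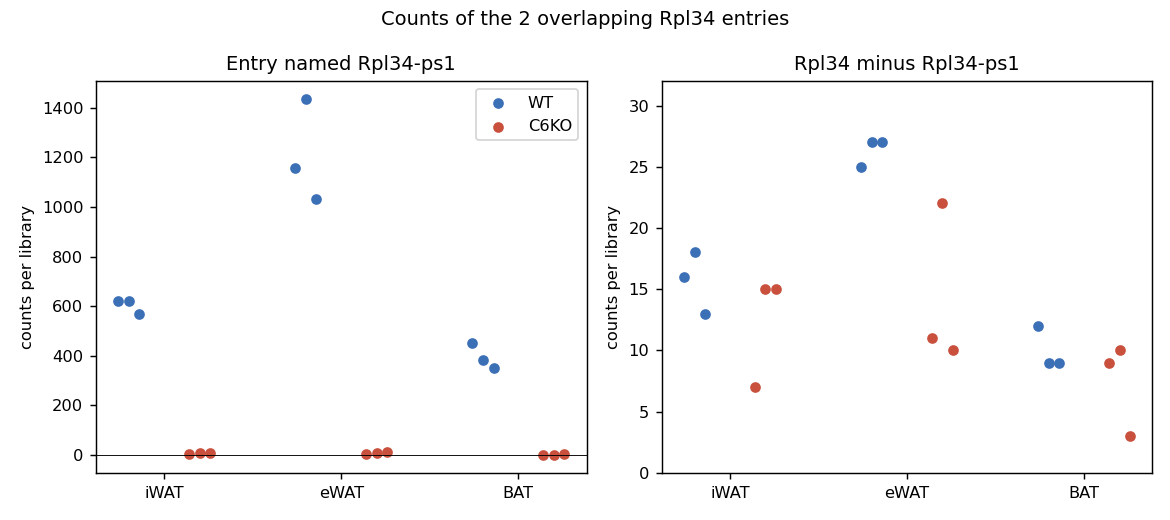
Counts at the Rpl34 locus. The left panel plots the counts of the entry named Rpl34-ps1 in each of the 18 libraries, and the right panel the counts of Rpl34 beyond them, by depot, with WT and C6KO in different colours. The left panel falls from 352 to 1436 counts in WT to at most 14 in C6KO, while in the right panel WT libraries lie between 9 and 27 and C6KO libraries between 3 and 22.

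Mcub lies 0.001 Mb after the end of Casp6, on the other strand, and is the nearest of all members (chr3:129914960-129970206). It encodes the inhibitory subunit of the mitochondrial calcium uniporter, the channel that carries calcium into mitochondria. Counts were 178, 252 and 255 in WT iWAT against 39, 70 and 82 in C6KO, 575, 681 and 502 against 257, 360 and 236 in eWAT, and 40, 45 and 34 against 10, 12 and 14 in BAT. No C6KO library reached a WT library of its depot.

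The levels of Mcub in C6KO were 27.0% (iWAT), 48.3% (eWAT) and 28.5% (BAT) of WT. Its log2 fold change was -1.89 for iWAT (standard error 0.297, adjusted p = 0.113), -1.05 for eWAT (0.158, with an adjusted p = 0.0419) and -1.81 for BAT (0.367, with an adjusted p = 0.0546). The call by edgeR was in eWAT, where the estimate was the smallest and the counts the highest, and it was lost without any 1 of 5 eWAT libraries. DESeq2 called it in all 3 (adjusted p = 3.51e-06, 9.99e-06 and 0.0125). Of the 50-base stretches of its transcript, 0 occurred in another annotated gene. The macrophage marker sum was also lower in C6KO in each depot, and its part in the values of Mcub was not tested.

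Most other members within 1 Mb of Casp6 had smaller estimates. Pla2g12a, a secreted phospholipase A2 whose gene ends at -0.006 Mb, had log2 fold changes of -0.35 (iWAT), 0.08 (eWAT) and -0.46 (BAT). Sec24b, a cargo adaptor of vesicles leaving the endoplasmic reticulum, lies just beyond Mcub and had 0.10, 0.07 and -0.06. Ostc, a subunit of the enzyme that attaches sugars to new proteins, is the tested neighbour next to Rpl34 and had 0.19, 0.13 and -0.35, and Gar1, a protein of the small nucleolar particles that modify ribosomal RNA, had -0.18, 0.07 and -0.09. None of these 4 passed the test in any depot (adjusted p between 0.358 and 0.914). Of the 10 (iWAT), 10 (eWAT) and 9 (BAT) members tested within 1 Mb, C6KO was lower without overlap for 5, 3 and 5. It was higher without overlap for 0, 1 and 0. Mcub and both Rpl34 entries are among the lower ones. Over all genes, 12.2%, 11.2% and 12.1% were lower without overlap, and 10.9%, 12% and 8.07% higher. In BAT all 9 estimates were lower.

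Enpep, the aminopeptidase that trims angiotensin II, lies at -0.569 Mb, before Casp6. Its C6KO libraries lay below WT in iWAT, at 15.4, 26.0 and 25.4 CPM against 46.0, 42.1 and 43.4, and in BAT, at 15.1, 16.8 and 16.2 against 29.2, 23.4 and 25.5. In eWAT the groups overlapped, at 78.4, 58.8 and 45.5 against 62.8, 73.0 and 59.1. The log2 fold changes were -0.98 in iWAT (adjusted p = 0.145; called by DESeq2 at an adjusted p of 0.00168), -0.09 in eWAT (0.855) and -0.70 in BAT (0.0941). Cfi, complement factor I, at -0.026 Mb, had higher and scattered values in C6KO, at 3.06, 18.9 and 9.63 CPM against 2.83, 1.26 and 1.87 in eWAT (log2 fold change 2.41, adjusted p = 0.142; called higher by DESeq2 at an adjusted p of 0.000338). In eWAT the summed CPM of 5 hepatocyte markers was 23.0 to 68.8 in C6KO and 3.88 to 10.7 in WT, and its part in the value of Cfi, a gene known for its expression in liver, was not tested. Egf, epidermal growth factor, had overlapping groups in every depot, with log2 fold changes of -0.13, 0.01 and -1.19, and its highest BAT value of 16.0 CPM was in the WT library with muscle markers. Of the 17 members within 1 Mb, 10 were tested in each white depot and 9 in BAT. Etnppl, Lrit3, Rrh, Pou5f1-rs4 and Gm35986 had a mean of at most 0.621 CPM in any group.

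The Adh cluster spans 7 genes between 8.30 and 8.53 Mb after Casp6, all on the plus strand, in the order Adh7, Adh1, Adh6a, Adh6b, Adh6-ps1, Adh4 and Adh5. Alcohol dehydrogenases oxidise ethanol, retinol and other alcohols, and Adh1 is the class I enzyme that handles both. Of the 7, Adh6b was called lower in iWAT and BAT and Adh1 in BAT, while in eWAT DESeq2 called Adh6b and Adh6-ps1 lower and edgeR no Adh gene. The median log2 fold change was -1.23 over 5 tested in iWAT, -0.15 over 4 in eWAT and -1.08 over 4 in BAT.

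Adh6b, a class V gene, had the largest estimates among the protein-coding genes of the cluster. Its iWAT counts were 302, 309 and 223 for WT against 4, 11 and 13 for C6KO, which gave -4.93 on the log2 scale (standard error 0.373, adjusted p = 0.00185). In BAT it held 52, 31 and 43 against 1, 0 and 3, or 4.58 ± 2.01 CPM against 0.137 ± 0.147, which gave -4.99 (0.747, adjusted p = 0.0168). With 4 counts in all 3 C6KO libraries of BAT, the ratio of summed counts per total was 33.4, with a 95% interval from 12.7 to 124.3 that covers counting error only. In eWAT the counts were 75, 65 and 27 against 6, 22 and 9, which gave -2.19 (0.541, adjusted p = 0.0759), and the groups did not overlap in any depot.

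Adh6-ps1, the pseudogene that follows Adh6b, had few reads and moved the same way. Its counts were 29, 18 and 31 in WT iWAT against 0, 0 and 2 in C6KO (log2 fold change -5.08, adjusted p = 0.121), 20, 10 and 31 against 0, 0 and 0 in eWAT, and 2, 5 and 7 against 0, 0 and 0 in BAT. Against a floor of 3 counts over the group, it was at least 20.4-fold lower in eWAT and at least 4.94-fold lower in BAT. Adh6a shared 0.387% of its 50-base stretches with Adh6b and had at most 3 counts in any library, in either genotype. Adh6b, matched here by symbol to a GENCODE transcript, shared 4.76% of its stretches with other genes.

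Adh1 had the highest level of the cluster in WT, also per kilobase of counted transcript. Its level was 212.4, 194.9 and 211.8 CPM in WT iWAT and 77.3, 79.6 and 121.3 in C6KO, and 207.0, 149.4 and 197.6 against 67.6, 59.5 and 105.1 in BAT. The log2 fold change was -1.25 in BAT (standard error 0.237, adjusted p = 0.0431) and -1.15 in iWAT (0.181, adjusted p = 0.113; called by DESeq2 at an adjusted p of 3.56e-06). In eWAT the groups overlapped, at 115.6, 101.7 and 120.8 against 66.2, 121.7 and 87.3 (log2 fold change -0.30, adjusted p = 0.526).

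At the end of the cluster the values were mixed. Adh5, the class III enzyme that clears formaldehyde and is the most widely expressed of the family, had log2 fold changes of 0.11, -0.01 and 0.12, with overlapping groups in all 3 depots. Its WT level was 81.2 ± 11.2 CPM in iWAT, 78.9 ± 1.33 in eWAT and 105.9 ± 21.9 in BAT. Adh4, between Adh6-ps1 and Adh5, held 12, 4 and 6 counts in WT eWAT and 26, 33 and 15 in C6KO (log2 fold change 1.71, adjusted p = 0.150). The hepatocyte marker sum was also higher in C6KO eWAT, and its part in this value was not tested. Adh4 did not pass the filter in iWAT or BAT. Its summed counts there were 26 in WT and 11 in C6KO for iWAT, and 21 and 40 for BAT. Adh7, at the start of the cluster, had -1.23 in iWAT (adjusted p = 0.319) and -0.92 in BAT (adjusted p = 0.649), with overlap in both. In eWAT, where Adh7 did not pass the filter, its summed counts were 9 in WT and 21 in C6KO. Tested genes of the cluster therefore had estimates from -5.08 to 0.11 in iWAT and from -4.99 to 0.12 in BAT.

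**Figure D3:**
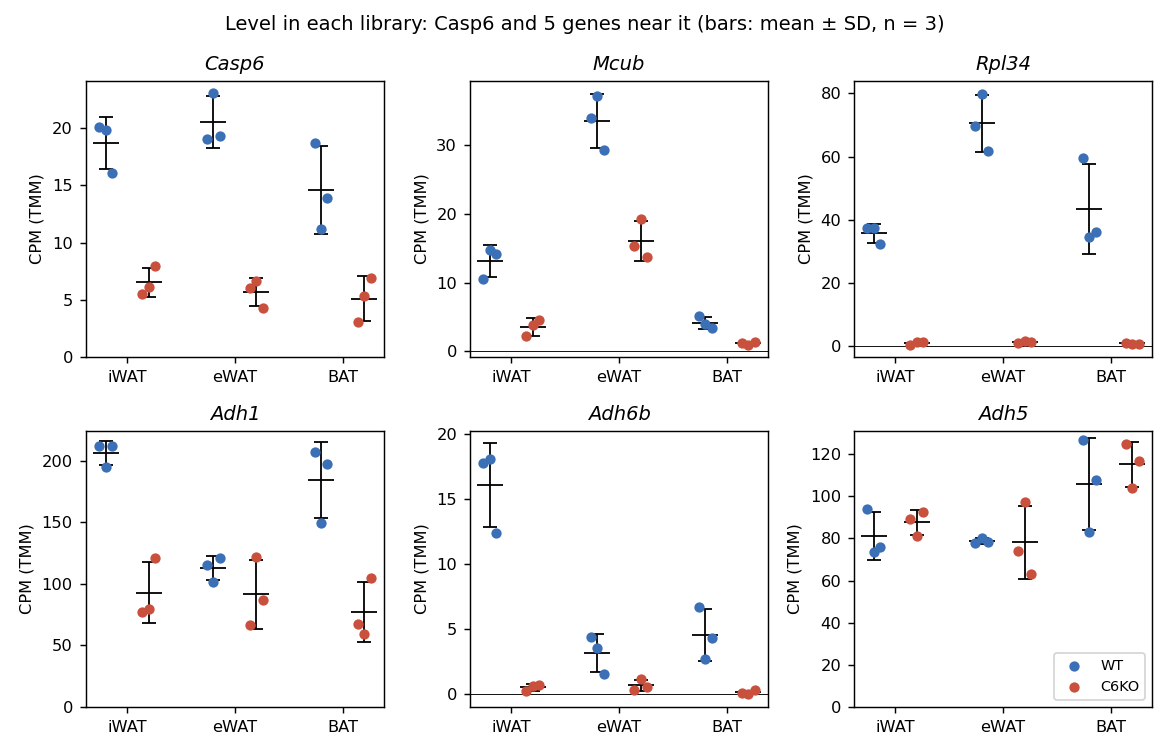
Level in each library of Casp6 and 5 members. Each point is 1 library in CPM, the lines are the mean and SD of 3 libraries, and WT and C6KO stand side by side for each depot. Rpl34 in C6KO lies near 0 in all 3 depots, Mcub and Casp6 are lower with reads left, Adh1 is lower in iWAT and BAT and overlaps in eWAT, and Adh5 overlaps throughout.

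Across the whole interval, 8 of the 72 members tested in all 3 depots had C6KO libraries that lay all on the same side of the WT libraries in all 3 depots, or 11.1%, against 2.89% of all genes tested in the 3. C6KO was lower for 7 of them (background 2.13%) and higher for 1 (background 0.754%). Both entries of the Rpl34 locus are among the 8, so the share counts that locus more than once. Besides Rpl34, Rpl34-ps1, Mcub and Adh6b, the lower ones were Cisd2, Manba and Dapp1, and the higher one was Trmt10a. Adh6-ps1 did the same but passed the expression filter of edgeR in iWAT only.

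Cisd2 and Manba lie 5.49 and 5.57 Mb after Casp6, with Ube2d3 between them, whose groups overlapped in each depot (log2 fold changes 0.05, -0.03 and -0.21). Manba, the lysosomal enzyme that removes mannose from glycoproteins, was at 29.7, 27.6 and 33.0 CPM in WT iWAT and 16.1, 13.9 and 21.7 in C6KO, 71.4, 72.3 and 66.2 against 49.1, 56.6 and 53.4 in eWAT, and 16.2, 18.6 and 16.8 against 9.22, 11.1 and 9.54 in BAT. Its log2 fold changes were -0.80, -0.40 and -0.79 (adjusted p = 0.154, 0.0805 and 0.087 by edgeR). DESeq2 called it lower in iWAT and BAT (adjusted p = 0.00993 and 0.0461). Cisd2, an iron-sulfur protein of the endoplasmic reticulum and outer mitochondrial membrane, had smaller values of -0.37, -0.35 and -0.57 (adjusted p = 0.227, 0.162 and 0.132).

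Dapp1 and Trmt10a lie 8.02 and 8.23 Mb after Casp6, just before the Adh cluster. Dapp1, an adaptor of phosphoinositide signalling known from B cells, was at 25.4, 32.8 and 24.3 CPM in WT eWAT and 13.8, 14.3 and 17.6 in C6KO (log2 fold change -0.86, standard error 0.160, adjusted p = 0.0490), with -0.76 in iWAT (adjusted p = 0.185) and -1.67 in BAT (adjusted p = 0.143). Without the WT library with muscle markers the BAT value was -1.02 (adjusted p = 0.335). That library held its highest BAT value, 8.73 CPM, and its 6 lymphocyte markers summed to 73.3 CPM against 2.48 to 6.20 in the other BAT libraries. Macrophage markers were lower in C6KO in each depot, as given above, with lower estimates for 10 of 10 markers in all 3. Their part in the values of Mcub, Dapp1, Manba and Cenpe was not tested. In whole tissue, fewer cells of a type and less RNA per cell cannot be told apart.

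Trmt10a, which methylates guanine in transfer RNA, was the 1 member of these 8 that was higher in C6KO. Its level was 8.6, 6.75 and 5.45 CPM in WT iWAT and 9.97, 14 and 10.8 in C6KO, 6.55, 5.35 and 5.60 against 10.1, 9.61 and 6.79 in eWAT, and 11.2, 9.96 and 9.20 against 15.4, 14.2 and 14.5 in BAT. None of its log2 fold changes of 0.74, 0.60 and 0.54 passed the test (adjusted p = 0.198, 0.186 and 0.241). Its neighbour Mttp, which loads lipid onto lipoproteins, had 0.75, 0.89 and 0.85 (adjusted p = 0.233, 0.135 and 0.278), with no overlap in eWAT. The longest annotated transcript of Trmt10a shares 1.88% of its 50-base stretches with Mttp.

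**Figure D4:**
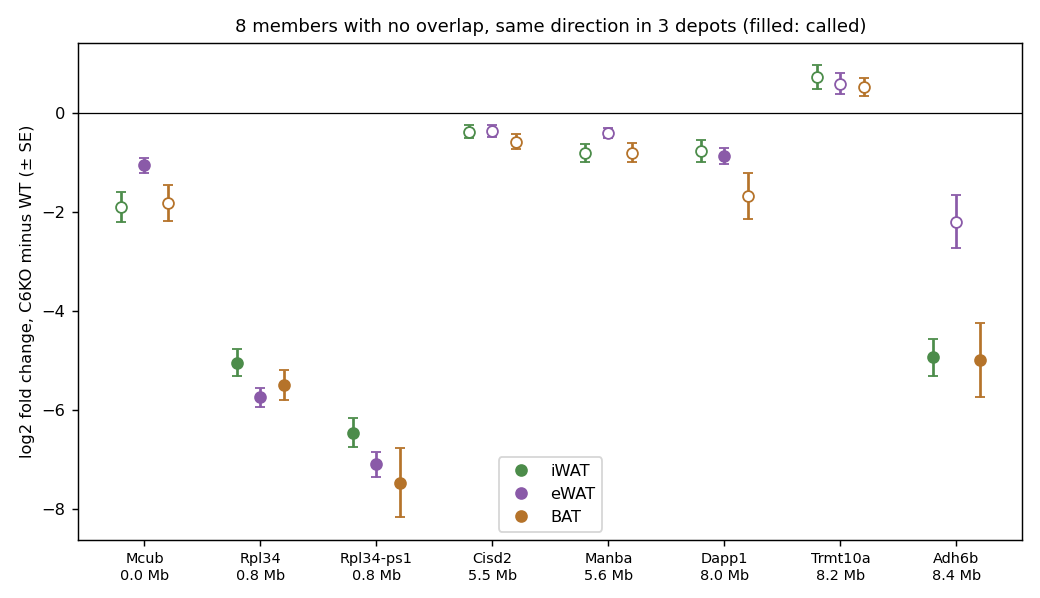
The 8 members without overlap in the same direction in 3 depots. Points are log2 fold changes, C6KO minus WT, with the standard error, coloured by depot and ordered by distance from Casp6, and filled points were called. Rpl34 and Rpl34-ps1 lie below -5, Adh6b at -4.99 to -2.19, Mcub at -1.89 to -1.05, Cisd2, Manba and Dapp1 between -1.67 and -0.35, and Trmt10a above 0.

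The promoters of 4 named genes are printed so that their starts can be compared. Adh1 is among them, though its groups overlapped in eWAT. Each runs from 250 bases before to 50 bases after the RefSeq start site (GRCm38.p6, the build of mm10), 5′ to 3′ on the strand of the gene. RefSeq entries matched 104 of the 134 members. Rpl34 is at chr3:130730288-130730587 (minus strand), Mcub at chr3:129970157-129970456 (minus strand), Adh1 at chr3:138277335-138277634 (plus strand) and Trmt10a at chr3:138143549-138143848 (plus strand). Capitals mark 4 motifs on either strand, which do not overlap in these windows: the TATA box (TATAAA), the GC box (GGGCGG), the CCAAT box (CCAAT) and the E-box (CACGTG).
Rpl34: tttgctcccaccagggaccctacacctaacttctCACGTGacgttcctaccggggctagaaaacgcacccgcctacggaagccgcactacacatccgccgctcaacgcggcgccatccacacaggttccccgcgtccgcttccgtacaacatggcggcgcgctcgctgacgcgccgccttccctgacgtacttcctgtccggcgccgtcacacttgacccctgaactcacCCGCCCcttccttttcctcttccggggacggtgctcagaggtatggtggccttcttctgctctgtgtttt
Mcub: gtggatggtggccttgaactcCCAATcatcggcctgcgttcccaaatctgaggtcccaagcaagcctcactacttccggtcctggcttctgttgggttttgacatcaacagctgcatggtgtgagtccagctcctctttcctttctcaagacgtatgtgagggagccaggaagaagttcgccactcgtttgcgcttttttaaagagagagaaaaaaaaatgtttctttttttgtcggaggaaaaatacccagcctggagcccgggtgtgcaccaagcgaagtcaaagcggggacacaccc
Adh1: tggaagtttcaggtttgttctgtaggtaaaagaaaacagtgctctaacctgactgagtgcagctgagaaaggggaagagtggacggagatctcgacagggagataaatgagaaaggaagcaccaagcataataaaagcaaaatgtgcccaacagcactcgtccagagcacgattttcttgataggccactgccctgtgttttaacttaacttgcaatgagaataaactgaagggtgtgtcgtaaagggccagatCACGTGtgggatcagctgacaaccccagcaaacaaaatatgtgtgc
Trmt10a: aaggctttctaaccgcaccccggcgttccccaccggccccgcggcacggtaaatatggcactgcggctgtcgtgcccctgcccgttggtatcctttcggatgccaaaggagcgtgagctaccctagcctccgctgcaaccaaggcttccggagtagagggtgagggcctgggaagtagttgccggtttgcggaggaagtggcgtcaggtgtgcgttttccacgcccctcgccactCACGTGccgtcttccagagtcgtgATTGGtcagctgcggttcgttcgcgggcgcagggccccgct
The TATA box was in 13.6% of the 32851 promoters of the same length, the GC box in 35.7%, the CCAAT box in 37.4% and the E-box in 7.15%. Of the 139 promoters of members these shares were 15.8%, 48.2%, 36% and 7.19%. The E-box was in the windows of Rpl34, Adh1 and Trmt10a and not in those of Mcub, Cisd2, Manba and Dapp1, and of the 4 printed the GC box was in that of Rpl34 and the CCAAT box in those of Mcub and Trmt10a. These are matches of letters in the reference strain, and no sequence of the C6KO mice was analysed.

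The remaining called members were called in eWAT alone. Fnbp1l, which links membrane curvature to actin assembly, lies at -7.28 Mb (before Casp6) and was at 80.3, 99.5 and 87.8 CPM in WT and 51.4, 54.1 and 57.1 in C6KO (log2 fold change -0.72, standard error 0.111, adjusted p = 0.0419). It had -0.35 in iWAT without overlap (adjusted p = 0.197) and 0.10 in BAT with overlap. In both of these depots Fnbp1l was counted on another transcript than in eWAT. Cenpe, a motor protein of the kinetochore in dividing cells, lies 5.30 Mb after Casp6 and was at 16.1, 20 and 22.5 CPM against 10.8, 10.9 and 8.87 (log2 fold change -0.94, standard error 0.171, adjusted p = 0.0468). It had -1.22 in iWAT and -1.36 in BAT, with overlap in both. Alpk1, a kinase that senses a bacterial sugar and starts an inflammatory response, lies at -2.12 Mb and was higher, at 59.7, 51.4 and 57.9 CPM in C6KO against 31.6, 35.2 and 29.3 (log2 fold change 0.81, standard error 0.116, adjusted p = 0.0357).

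Some members outside the naming rule were picked after their values were seen, namely Slc9b2, Mttp, Lamtor3, Tspan5 and those named for a single library at the end. Slc9b2, a sodium-proton exchanger 5.39 Mb after Casp6, was low throughout but had a large estimate. Its counts were 42, 30 and 47 in WT iWAT and 4, 6 and 1 in C6KO (log2 fold change -3.44, adjusted p = 0.121; DESeq2 adjusted p = 0.00026), and 47, 26 and 40 against 6, 9 and 30 in eWAT (-1.33, adjusted p = 0.281). In BAT they were 3, 3 and 7 against 0, 0 and 0, at least 4.59-fold lower against a floor of 3 counts over the group.

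Members were also grouped by function, in lists written with earlier results known, with examples among the most abundant. Of 18 mitochondrial, lipid and redox enzymes, 16 were tested in each white depot and 14 in BAT, and Mcub in eWAT was the 1 called. The medians were -0.05, -0.07 and -0.07. Hadh, which oxidises short-chain acyl groups in mitochondria, had the highest CPM of these, without regard to length, at 448.6 ± 14.9 CPM in WT iWAT, 208.0 ± 2.92 in eWAT and 2411.8 ± 651.0 in BAT, and log2 fold changes of 0.18, 0.45 and 0.02. In eWAT its C6KO libraries all lay above WT, where the adipocyte marker sum was also higher, with higher estimates for 5 of 5 markers, and their part in this value was not tested. Abcd3, a peroxisomal fatty acid transporter, had 0.05, 0.16 and 0.07, and Ppa2, the mitochondrial pyrophosphatase, had -0.02, -0.22 and -0.02.

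Of 11 genes of RNA handling and translation, all tested, Rpl34 was the 1 called in each depot, and the medians were -0.18, -0.14 and -0.09. Eif4e, the cap-binding factor of translation, had -0.19, -0.18 and -0.50, Dnttip2 had 0.22, -0.07 and 0.01, and Tet2, which oxidises methylated cytosine in DNA, had -0.18, -0.38 and -0.09. None of these 3 passed the test. Of 9 genes of secretion and vesicle traffic the medians were 0.05, 0.05 and -0.23, with 8 of 9 estimates lower in BAT. Ube2d3, a ubiquitin-conjugating enzyme, had 0.05, -0.03 and -0.21, and Sec24d, another cargo adaptor, had -0.11, 0.20 and -0.60. Lamtor3, a scaffold of nutrient signalling on lysosomes, was at 34.6, 26.6 and 31.1 CPM in WT BAT against 15.4, 19.2 and 15.3 in C6KO (log2 fold change -0.89, adjusted p = 0.0546, called by DESeq2 at an adjusted p of 0.00788).

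Of 10 immune, coagulation and endothelial genes, Dapp1 was called lower and Alpk1 higher, both in eWAT, and the medians were 0.02, 0.05 and -0.69. F3, the tissue factor that starts clotting, had 0.28, 0.09 and -0.63, Emcn, a sialomucin of endothelial cells, had 0.02, 0.43 and 0.14 (in eWAT without overlap, as the endothelial marker sum, whose part was not tested), and Tifa, the partner of Alpk1 in innate sensing, had -0.64, -0.10 and -0.69. Tifa and Alpk1 are neighbours, and C6KO libraries lay below WT for Tifa in iWAT and above WT for Alpk1 in eWAT. Of 13 signalling and cytoskeleton genes, Fnbp1l in eWAT was the 1 called, and the medians were -0.13, 0.08 and -0.35. Arhgap29, a GTPase-activating protein, had 0.10, 0.38 and -0.24, Ppp3ca, the catalytic subunit of calcineurin, had -0.19, -0.17 and -0.36, and Bcar3, an adaptor of cell adhesion, had -0.52, 0.08 and -0.59.

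By position, every lower call by edgeR in iWAT and BAT was after Casp6, and in eWAT 5 were after it and 1, Fnbp1l, before it. Tested members before Casp6 numbered 37 (iWAT), 38 (eWAT) and 34 (BAT), and those after it 43, 44 and 42. Over both sides, C6KO was lower without overlap for 18, 14 and 18 members and higher for 6, 17 and 2. These are 22.5%, 17.1% and 23.7% of the members tested for lower, where 12.2%, 11.2% and 12.1% of all genes did so, and 7.5%, 20.7% and 2.63% for higher, against 10.9%, 12% and 8.07%. Of the lower ones, 6, 3 and 4 lay before Casp6, among 37, 38 and 34 tested there. After it lay 12, 11 and 14, where both Rpl34 entries are counted. Of the higher ones, 2, 9 and 1 lay before Casp6 and 4, 8 and 1 after it. Before Casp6 in eWAT, more members were therefore higher without overlap than lower, 9 against 3 of 38. Between 6 and 4 Mb before Casp6 none of 4 members had enough reads to be tested.

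Values without overlap after Casp6 were counted in steps of 2 Mb, each with 5 to 13 members tested. Over all genes, 12.2%, 11.2% and 12.1% were lower without overlap (iWAT, eWAT and BAT) and 10.9%, 12% and 8.07% higher. With so few members in a step, a count of 0 cannot be told apart from these shares. Within the first 2 Mb, C6KO was below WT without overlap for 3 of 8 members tested in iWAT, 3 of 9 in eWAT and 4 of 8 in BAT, and above WT for 0, 2 and 0. Both Rpl34 entries, which share 1 locus, are among those below in each depot. Between 2 and 4 Mb after Casp6, 8 members were tested in each depot, from Dkk2 to Tet2, and C6KO libraries were below WT without overlap for 0 of them in all 3 and above for 0, 1 and 0. Between 4 and 6 Mb they were below for 4 of 9 in iWAT, 4 of 9 in eWAT and 2 of 7 in BAT, and above for 2, 0 and 0. At 6 to 8 Mb they were below for 0 of 5, 1 of 6 and 2 of 6, and above for 0, 1 and 0. Between 8 and 10 Mb they were below for 5 of 13, 3 of 12 and 6 of 13, and above for 2, 4 and 1, so that in eWAT more of them were higher than lower there. At the edges of the interval, the last tested members inside were Rwdd3 at -8.73 Mb (log2 fold changes -0.46, 0.00 and 0.22), and Rap1gds1 at 9.01 Mb (0.27, 0.01 and 0.22). The first tested genes outside were Ptbp2 (0.11, 0.04 and -0.06) and Bmpr1b, tested in eWAT and BAT (-1.08 and -0.69). None of these 4 passed the test in any depot.

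Differences between depots were tested as interactions in 1 fit of all 18 libraries, over 88 members and 15866 genes. By edgeR, 0 members differed between eWAT and iWAT (background 0%, with 8 at an unadjusted p below 0.05 against 5.48%, and 0 by DESeq2 against 0.0866%), 0 between BAT and iWAT (0.183%, with 10 at an unadjusted p below 0.05 against 9.93%, and 2 by DESeq2 against 1.31%) and 0 between BAT and eWAT (0.536%, with 15 at an unadjusted p below 0.05 against 11.2%, and 4 by DESeq2 against 2.5%). Tspan5, a tetraspanin 8.83 Mb after Casp6, came closest. It was at 46.0, 44.4 and 49.5 CPM in WT iWAT against 38.4, 32.7 and 35.7 in C6KO, and at 17.4, 17 and 14.3 against 11.8, 11.0 and 12.7 in BAT. In eWAT the order was the other way, at 48.8, 44.1 and 53.9 against 56.4, 63.5 and 61.1. The difference of its effect in BAT from that in eWAT was -0.77 on the log2 scale (standard error 0.172, adjusted p = 0.0585; called by DESeq2 at an adjusted p of 0.0115).

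For Rpl34, Mcub and the Adh genes no difference between depots passed the test. The effect on Adh6b in BAT was lower than in eWAT by -2.87 on the log2 scale (standard error 0.985, adjusted p = 0.245), and that on Adh1 by -0.97 (0.346, adjusted p = 0.267). That on Mcub in eWAT was above that in iWAT by 0.84 (0.342, adjusted p = 0.890). Fnbp1l had 0.81 in BAT relative to eWAT (0.193, adjusted p = 0.0748; called by DESeq2 at an adjusted p of 0.00503). The transcript counted for Fnbp1l differed between these depots, so this compares effects on different transcripts. The members called by DESeq2 were F3 and Myoz2 for BAT against iWAT, and Fnbp1l, Myoz2, Sec24d and Tspan5 for BAT against eWAT. Myoz2 is a gene whose BAT estimate changes sign without WT replicate 2, as given next.

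In BAT, several large estimates rested on the WT library with muscle markers. For 9 members, that library held over 4 times the CPM of the next BAT library, a list made after the values were seen. Myoz2, a protein of the muscle Z-disc, was at 105.9 CPM there and at 0.00 to 13.5 CPM in the other 5, and its log2 fold change of -2.53 (adjusted p = 0.744) became 3.48 without it (adjusted p = 0.558). Synpo2, an actin-bundling protein of muscle, was at 215.7 CPM against 20 to 52.3, and went from -1.30 to 0.43. Ddit4l, 1110002E22Rik and Dkk2 turned from -1.90, -2.50 and -1.62 to 1.71, 1.77 and 2.17. None of these was called with or without it, and without it edgeR called 5 members lower in BAT, which were Rpl34, Rpl34-ps1, Lamtor3, Adh1 and Adh6b.

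In iWAT, C6KO replicate 3 stood apart from the other C6KO libraries, with a macrophage marker sum of 1253.5 CPM where they had 440.9 and 459.5. Without it edgeR called 14 members lower and 3 higher, among 951 lower and 327 higher over all genes. The 14 were Rpl34, Rpl34-ps1, Mcub, Adh1, Adh6b, Adh6-ps1, Slc9b2, Enpep, Manba, Dapp1, Cenpe, Ank2, Fam241a and Tmem56, and the 3 were Alpk1, Npnt and 1810037I17Rik.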

How the data were processed

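The authors prepared poly(A) RNA libraries, sequenced them on an Illumina NextSeq, used STAR for alignment to the mm10 genome and HOMER for counts over exons, on 1 transcript per gene, as the labels and the study's methods state. The deposited values are these raw counts, in 1 table for each depot with 3 WT and 3 C6KO libraries. Read length and strandedness are not given in the sources used here. Every value column was mapped to a sample (0 unmapped). The transcript counted differed between the tables for 2619 genes, 18 of them members, so levels were compared within a depot.

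Members, lists and tests were chosen with earlier results of these data known. In each depot edgeR 4.0.16 (R 4.3.3) fitted the robust quasi-likelihood test to TMM-scaled counts after its expression filter, which left 14533 (iWAT), 14889 (eWAT) and 13595 (BAT) genes. Differences between depots were contrasts in 1 fit of 18 libraries and 15866 genes. No overlap means that all 3 C6KO libraries lay on 1 side of all 3 WT libraries in CPM. Distances are from the nearer end of Casp6. Named genes were the Rpl34 and Adh genes, Mcub, members called in a depot or without overlap in all 3, members within 1 Mb, those at the edges, and the most abundant of each list. Of the members within 1 Mb, 1 is not reported here. For genes with few reads, ratios of summed counts carry exact 95% intervals, and a floor of 3 counts stands for a group at 0. Both cover counting error only. Alternatives were DESeq2 1.42.0, other scalings and filters, no fold minimum, all libraries in 1 fit, the replicate number as a block (with limma 3.58.1 for interactions), intervals of 5 and 20 Mb, and leaving out each library. Procedures were tested on simulated counts. Sequences are from RefSeq (GRCm38.p6) and GENCODE vM21, and shared sequence was sought in all GENCODE transcripts as exact stretches of 50 bases.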

Additional observations from a re-analysis of the deposited data

How the results depend on the processing

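Of 408 single-gene log2 fold changes under these alternatives, 335 kept their direction and side of the threshold, 45 were no longer called, 23 became called and 5 changed sign. Adh5 in eWAT was 0.00 without WT replicate 2, 0.03 without C6KO replicate 1 and 0.12 without C6KO replicate 3 (range -0.19 to 0.12), Adh5 in BAT was -0.02 without WT replicate 2 (range -0.02 to 0.29), and Fnbp1l in BAT was -0.04 without it (range -0.04 to 0.25). Of 14 called pairs of gene and depot, 6 were called under all 12 alternatives computed for each. Dapp1 in eWAT was lost under 8, with estimates from -0.97 to -0.71.

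For members lower in iWAT (3), DESeq2 gave 9, no filter 5, 1 fit of 18 libraries 9, and leaving out 1 library 3 to 14. For higher in iWAT (0) these gave 1 with DESeq2, 1 in the fit of 18, and 0 to 3. For lower in eWAT (6) the fit of 18 gave 2, an interval of 5 Mb gave 3, and leaving out 1 library 2 to 7. For higher in eWAT (1), DESeq2 gave 4, the fit of 18 gave 0, 20 Mb gave 2, and leaving out 1 library 0 to 2. For lower in BAT (4), DESeq2 gave 7, a mean of at least 50 counts 2, the fit of 18 gave 12, 5 Mb gave 2, and leaving out 1 library 1 to 5. For higher in BAT (0), 20 Mb gave 1. Members whose effect differed between depots (0 by edgeR) were 2 by DESeq2 for BAT against iWAT (0 to 1 leaving out 1 library) and 4 for BAT against eWAT (0 to 2). Members without overlap in all 3 depots (8) were 3 within 5 Mb and 8 to 9 leaving out 1 library. A narrower interval holds fewer genes, and the cause of the other shifts was not tested.

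With the replicate block, 5 (iWAT), 7 (eWAT) and 3 (BAT) members were called lower. Mcub and Adh1 were added in iWAT and Adh6b in eWAT, and Rpl34-ps1 was lost in BAT. Within a depot, WT and C6KO libraries of the same number had deviations that correlated at 0.006 to 0.056 (iWAT), -0.07 to 0.183 (eWAT) and -0.586 to -0.277 (BAT). Across depots, those of the same genotype and number correlated at -0.066 to 0.219, and those of different numbers at -0.246 to 0.16. The numbers served as names. Whether the depots came from the same mice is not stated in the labels or the study's methods. The interaction test took the 18 libraries as independent, and agreement between depots may not be independent.

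Depth was lower in BAT, where Adh6-ps1 and Slc9b2 had under 10 counts in every library and did not pass the filter of the BAT fit. The fit of 18 libraries, with its own filter, called Slc9b2 lower in BAT. Adh6-ps1 did not pass the filter in eWAT either, with 10 to 31 counts in WT and 0 in C6KO. The coefficient of biological variation between libraries was 0.216 (iWAT), 0.191 (eWAT) and 0.32 (BAT).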
